A study of Caenorhabditis elegans with 21 samples.

Results

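Pseudogenes are loci that resemble protein-coding genes but carry broken or incomplete reading frames. The members described here were the gene identifiers of a deposited small RNA count table from the nematode Caenorhabditis elegans whose biotype is pseudogene in the Ensembl WBcel235 annotation. Another 16 pseudogenes whose names start with fbxa-, fbxb-, fbxc-, bath-, math-, his- or col- were left out by the rule, which used no measured value. This left 182 pseudogenes among the 75393 features of the table, which also holds 19850 protein-coding genes and 55259 unnamed genomic intervals. The annotation lists 2128 pseudogenes, and those with no row of their own in the table were not analysed here as genes.

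The 21 libraries were made from small RNA of whole worms at the L4 larval stage, grown at 15 °C with NA22 bacteria as food. The groups were mut-2(ne3370) with 3 libraries, mut-7(ne4255) with 3, dpf-3 null with 3, DPF-3 S784A with 3 and wild type with 9. In DPF-3 S784A the protein carries a change of 1 amino acid, and the labels do not say how the null was made. The study asked, by its title, how cleavage of Argonaute proteins by a protease controls the small RNAs they carry.

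In C. elegans, RNA-dependent RNA polymerases copy target transcripts into short antisense RNAs with a 5′ triphosphate. These secondary small RNAs are carried by a worm-specific group of Argonautes, the WAGO proteins, which silence transposons, pseudogenes and other targets. MUT-2 (also called RDE-3) is a nucleotidyltransferase that tails target RNAs so that they can serve as templates, and MUT-7 is a protein with a 3′-to-5′ exonuclease domain that acts with it in the mutator complex. DPF-3 is a dipeptidyl peptidase that trims the N termini of the Argonautes WAGO-1 and WAGO-3. A polyphosphatase step before library preparation admitted the triphosphorylated RNAs. A count is therefore a small RNA read assigned to a pseudogene, not a measure of its transcript.

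Counts assigned to any feature ran between 40693 and 100173 per mutator library, between 62715 and 224503 per dpf-3 null or DPF-3 S784A library, and between 233040 and 583038 per wild-type library. Levels are given as CPM, edgeR's library-scaled counts with TMM factors, and 3 counts in a library correspond to 46.7 CPM in the shallowest and 5.60 CPM in the deepest library. Wild-type libraries A to F and G to I stood apart: chi-square per degree of freedom was 8.33 to 12.5 between the sets, against 1.06 to 1.55 within a set or genotype. The labels give no reason for 2 sets, so the share of any mutant difference that comes from the choice of wild-type libraries cannot be told apart from genotype, and the numbers of pseudogenes called in each mutant are also given against each set alone. Nothing in the labels says that libraries of a genotype came from separate cultures, so p-values measure the spread between libraries, which may be technical. In the main fit, with wild type as 1 group, that spread includes the gap between the wild-type sets. The common dispersion was 0.0948 there, against 0.00454 with wild type as 2 sets. The main p-values and SEs therefore hold that gap, also for differences between mutants. Small RNAs on dpf-3 itself stood at 5.27 to 12.4 CPM in dpf-3 null, 111 to 155 CPM in DPF-3 S784A and 61.6 to 141 CPM in wild type, which does not test the other alleles.

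Of the 182 pseudogenes, 132 had at least 1 count in the 21 libraries and 50 had none. The filter on low counts kept 45, which held 98.5% of all pseudogene counts, and 87 with a count were not tested. A pseudogene that is high in 1 genotype only can pass the filter through that genotype, so the 45 do not stand for all 182. The tested pseudogenes lay on chromosomes I (10), II (9), III (12) and X (14), and the members on chromosomes IV (4) and V (1) were not among them. Their exons summed to a median of 1042 bases (169 to 4196), against 1134 bases for the counted but untested pseudogenes and 869 bases for those with no count. Per kilobase of exon, the wild-type level of the tested pseudogenes spanned 8.52 to 20263 CPM with a median of 177 CPM. Only 4 of the tested pseudogenes have a locus name, namely snpc-3.3, enu-3.4, set-33 and ferl-1. The other 41 are known by their sequence names, and no function is given for them here.

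Small RNAs on pseudogenes took a smaller part of the libraries in both mutators than in any other group. The 182 pseudogenes held 0.833% ± 0.247 of feature counts in the mut-2 libraries and 1.02% ± 0.0472 in the mut-7 libraries (SD, n = 3 each). They held 3.41% ± 0.265 in the null and 3.32% ± 0.126 in DPF-3 S784A (SD, n = 3 each), and 3.51% ± 0.393 in wild type (SD, n = 9). In whole worms, fewer cells that hold such small RNAs and less of them per cell cannot be told apart. No mutator library was above 1.11%, and no library of the other groups fell under 2.94%. The wild-type sets differed here as well, with 3.01% ± 0.0922 in G to I (SD, n = 3) and 3.76% ± 0.148 in A to F (SD, n = 6), and both dpf-3 genotypes lay between them. The share of reads in no feature moved with genotype, at about 85% to 91% in the mutators, 78% to 83% in the dpf-3 genotypes and 53% to 71% in wild type. Taken over all counted reads, the pseudogene share was 0.0816% in mut-2, 0.142% in mut-7, 0.713% in dpf-3 null, 0.588% in DPF-3 S784A and 1.24% in wild type. On that scale the dpf-3 genotypes stood below wild type, so whether they kept the pseudogene share depends on the denominator. The 4 most abundant pseudogenes held 49.6% of the pseudogene counts in mut-2, 40.0% in mut-7, 74.4% in dpf-3 null, 71.7% in DPF-3 S784A and 71.6% in wild type.

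**Figure D1:**
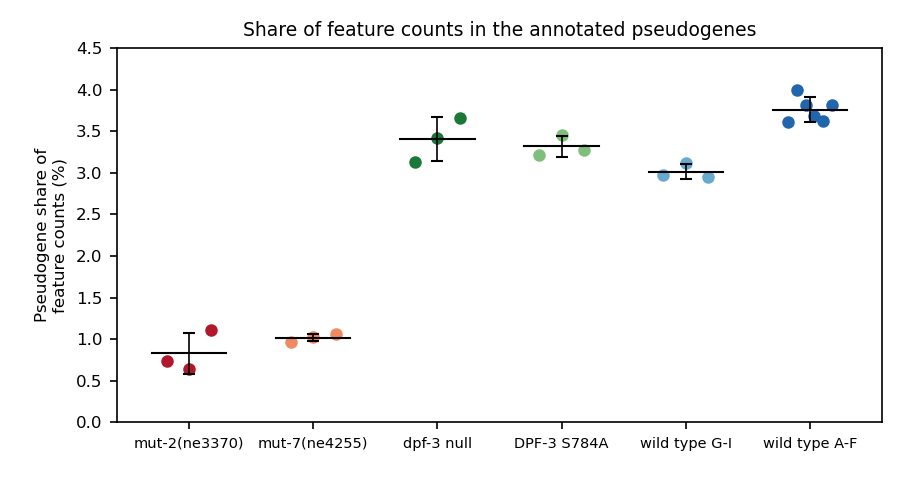
Share of feature counts assigned to the 182 pseudogenes, in percent, for each library (points), with the mean (line) and SD (bar) of each group. The mut-2 and mut-7 libraries lie between 0.645% and 1.11%, and every other library lies between 2.94% and 4.0%.

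Of the 45 tested pseudogenes, 31 were lower in mut-2 than in wild type by edgeR's quasi-likelihood test at an adjusted p under 0.05, where 31.5% of all 5038 tested features were lower, and 1 was higher, where 16.1% of features were. In mut-7, 30 were lower (33.3% of features) and 0 were higher (23.0% of features). In dpf-3 null, 21 were lower (23.2% of features) and 1 was higher (13.1% of features). In DPF-3 S784A, 17 were lower (21% of features) and 1 was higher (8.14% of features). The median log2 difference from wild type over the 45 was -2.92 in mut-2, -4.41 in mut-7, -1.44 in the null and -1.30 in DPF-3 S784A. With pseudogenes at 0 counts set to the bound that 3 counts over the group allow, the medians were -2.40 for mut-2 and -3.14 for mut-7. The medians over all tested features were -0.02, 0.11, 0.17 and 0.04 in the same order of genotypes. Of the tested protein-coding genes 24.8% were lower in mut-2 and 16.6% in dpf-3 null, and of the unnamed intervals 89.3% and 80.8%. These shares over gene classes are descriptions without a test of the difference.

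Against the 2 wild-type sets taken singly the lower calls were as many or more, and the higher calls depended on the set. These calls came from 1 fit of all libraries with wild type as 2 groups. Its common dispersion was 0.00454, against 0.0948 in the main fit. The numbers thus differ from the main ones in the spread used as well as in the reference. Against wild type A to F, 34 pseudogenes were lower and 1 higher in mut-2 (32.7% and 19.0% of features), and 35 were lower and 1 higher in mut-7 (34.6% and 28.9%). Against the same set, 29 were lower and 3 higher in dpf-3 null (27.3% and 21.5%), and 23 were lower and 1 higher in DPF-3 S784A (24.6% and 10.9%). Against wild type G to I, 31 were lower and 2 higher in mut-2 (33.7% and 18.2%), and 30 were lower and 1 higher in mut-7 (35.4% and 26.3%). Against G to I, 26 were lower and 9 higher in dpf-3 null (28.4% and 25.2%), and 22 were lower and 11 higher in DPF-3 S784A (25.2% and 18.2%). Lower against both sets were 26 pseudogenes in mut-2 (28.0% of features), 27 in mut-7 (30.3%), 20 in the dpf-3 null (21%), and 15 in S784A worms (18.4%). Some pseudogenes were called in opposite directions by the 2 sets, which happened for 1 in mut-7 (1.41% of features), 4 in the null (2.5%) and 3 in S784A worms (1.37%). These were ZK402.3 in mut-7, W05H12.2, Y71A12B.3, T20B6.2 and Y52B11A.18 in dpf-3 null, and Y57A10A.3, W04B5.2 and Y52B11A.18 in DPF-3 S784A.

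**Figure D2:**
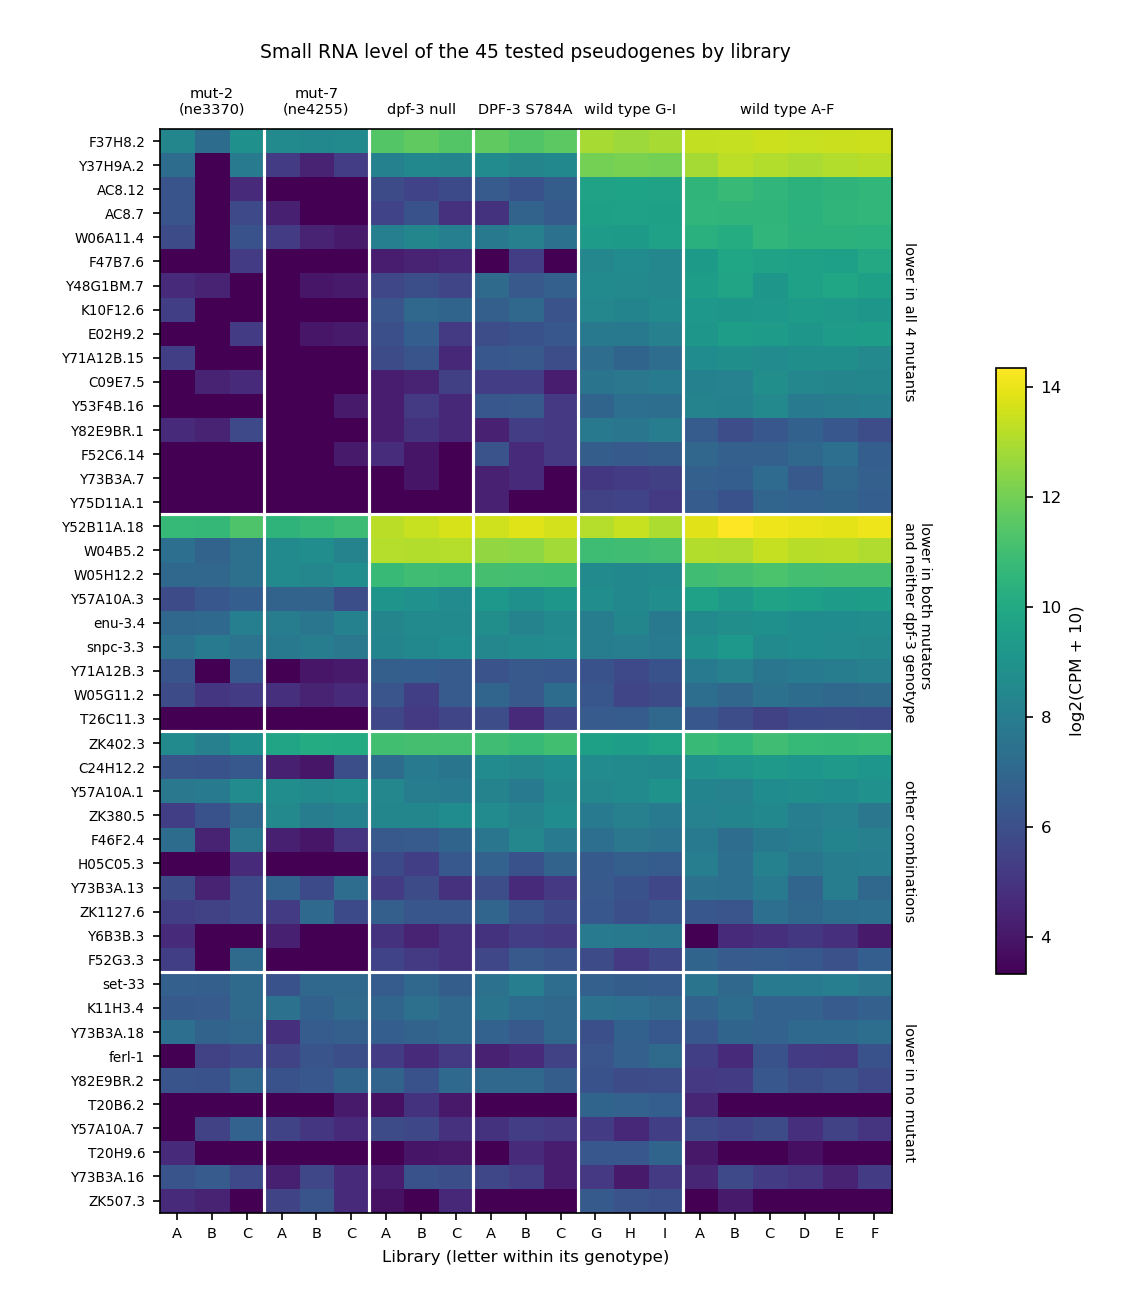
Level of each of the 45 tested pseudogenes (rows) in each of the 21 libraries (columns), as log2 of CPM plus 10. Rows are grouped by the combination of mutants in which they were called lower than wild type and ordered by mean level, and the upper block darkens in all 4 mutants while the block under it darkens in both mutators.

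The largest group was lower in every mutant. It held 16 of the 45 pseudogenes (20.0% of all tested features): F37H8.2, Y37H9A.2, AC8.12, AC8.7, W06A11.4, F47B7.6, Y48G1BM.7, K10F12.6, E02H9.2, Y71A12B.15, C09E7.5, Y53F4B.16, Y82E9BR.1, F52C6.14, Y73B3A.7 and Y75D11A.1. Summed over the 16, the mut-2 libraries held 731, 174 and 919 CPM and the mut-7 libraries 443, 378 and 436 CPM. The dpf-3 null libraries held 3569, 4415 and 3635 CPM, the DPF-3 S784A libraries 4532, 3876 and 4090.0 CPM, and wild type between 15693 and 30046 CPM. These sums formed 3 steps that did not overlap, with the mutators lowest, the dpf-3 genotypes in the middle and wild type highest. The choice of the 16 as lower than wild type in every mutant largely fixes the place of wild type. Abundant members weigh most in the sums, and F37H8.2 alone had a mean of 2887 CPM in dpf-3 null and 9942 CPM in wild type. The middle step was not seen in every member, for example not in F47B7.6 or Y75D11A.1. Against A to F alone all 16 were lower in all 4 mutants. Against G to I alone 15 were, the exception being Y73B3A.7 in DPF-3 S784A. The direct contrast of the 2 mutators with the 2 dpf-3 genotypes leaves the wild-type level out. There 12 of the 16 were lower in the mutators, where 28.0% of all tested features were. The share over only those features lower in all 4 mutants is not given here.

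F37H8.2 was the most abundant pseudogene of this group (chromosome II, 11171743 to 11175479, minus strand, 10 exons). It had 327, 139 and 452 CPM in mut-2 and 375, 343 and 367 CPM in mut-7. It had 2682, 3240.4 and 2738 CPM in dpf-3 null and 3285, 2619 and 3057 CPM in DPF-3 S784A. In wild type it ranged between 6799 and 11896 CPM with a median of 10809 CPM. No library of either mutator came near a dpf-3 library, and no dpf-3 library came near wild type. The log2 differences from wild type were -5.04 in mut-2 (SE 0.34, adjusted p = 1.57e-10), -4.78 in mut-7 (SE 0.33, adjusted p = 6.02e-11), -1.78 in dpf-3 null (SE 0.26, adjusted p = 8.92e-06) and -1.73 in DPF-3 S784A (SE 0.26, adjusted p = 2.1e-05) by edgeR. It was thus 3.44 times lower in dpf-3 null and 3.32 times lower in DPF-3 S784A than in wild type, and the direct contrast of mutators with dpf-3 genotypes was -3.15 (SE 0.23, adjusted p = 8.36e-10).

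Y37H9A.2 fell further in the dpf-3 genotypes (chromosome I, 13779779 to 13781402, minus strand, 10 exons). It had 140, 0 and 233 CPM in mut-2 and 28.9, 11.6 and 30.6 CPM in mut-7. It had 278, 348 and 312 CPM in dpf-3 null and 395, 311 and 344 CPM in DPF-3 S784A, against 4202 to 9937 CPM in wild type with a median of 8058 CPM. All 12 mutant libraries lay far under the lowest wild-type library. The edgeR log2 differences were -5.92 in mut-2 (SE 0.57), -8.28 in mut-7 (SE 0.66), -4.53 in dpf-3 null (SE 0.49) and -4.36 in DPF-3 S784A (SE 0.49), with adjusted p of 1.42e-08, 4.75e-10, 1.52e-07 and 5.23e-07.

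AC8.7 and AC8.12 lie 8484 bases apart on chromosome X (230433 to 231365 and 239849 to 240781, both on the plus strand), with spans of 933 bases, 5 exons and 744 exonic bases each. AC8.12 had 62.2, 0 and 14.6 CPM in mut-2 and no count in mut-7. It had 49.7, 36.9 and 46.5 CPM in dpf-3 null and 81.1, 59.2 and 86.1 CPM in DPF-3 S784A, against 816 to 1774 CPM in wild type. With 0 counts in mut-7 and 2806 in wild type, it was at least 154-fold lower in mut-7 when 3 counts over the group are taken as the limit. In mut-2, AC8.7 had 7 counts, and in mut-7 it had 1, and its wild-type counts followed those of AC8.12, with a ratio of AC8.12 to AC8.7 of 0.969 to 1.18 per library. The edgeR log2 differences of AC8.7 from wild type were -4.97 in dpf-3 null (SE 0.48, adjusted p = 4.01e-08) and -4.25 in DPF-3 S784A (SE 0.49, adjusted p = 6.58e-07). The assignment of reads that match several places is not given in the sources used here, so the values of these alike loci are uncertain one from the other.

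W06A11.4, Y48G1BM.7 and K10F12.6 repeated the 3 steps at lower levels. W06A11.4 (chromosome II) had 46.7, 0 and 58.4 CPM in mut-2 and 28.9, 11.6 and 7.64 CPM in mut-7, against 261, 327 and 259 CPM in dpf-3 null, 213, 266 and 164 CPM in DPF-3 S784A and 645 to 1546 CPM in wild type. K10F12.6 (chromosome III) had 2 counts in mut-2 and none in mut-7, against 66.3, 121 and 106 CPM in dpf-3 null, 91.3, 118 and 60.3 CPM in DPF-3 S784A and 304 to 685 CPM in wild type. Both were read in every dpf-3 library and lay lower in every mutator library. Relative to wild type, W06A11.4 differed by -1.99 in dpf-3 null (SE 0.33, edgeR adjusted p = 3.74e-05) and by -2.41 in DPF-3 S784A (SE 0.36, adjusted p = 1.69e-05). Pooled over the 2 mutators, K10F12.6 had 2 counts against 79 in the dpf-3 genotypes, 28.6 times lower with an exact 95% interval of 7.67 to 240 that covers counting error only. Y48G1BM.7 (chromosome I) had 15.6, 11.6 and 0 CPM in mut-2 and 0, 5.81 and 7.64 CPM in mut-7, and it had 41.5, 52.7 and 39.9 CPM in dpf-3 null and 132, 74.0 and 94.7 CPM in DPF-3 S784A, against 338 to 891 CPM in wild type.

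F47B7.6 and Y75D11A.1, both on chromosome X, were near 0 in all 4 mutants. F47B7.6 had 2 counts in mut-2, 0 in mut-7, 6 in the dpf-3 null, and 2 in S784A worms, against 1373 in wild type. In mut-7 it was at least 75.4-fold lower than in wild type, and in DPF-3 S784A it was 78.5 times lower (exact 95% counting interval 21.7 to 649). Y75D11A.1 had no count in mut-2, mut-7 or dpf-3 null and 1 count in DPF-3 S784A, against 27.2 to 112 CPM in wild type. Its bounds were modest, at least 4.44-fold lower in mut-2, 8.23-fold in mut-7 and 11.8-fold in dpf-3 null. Its 150 wild-type counts and the depth of the mutant libraries together set these limits. Among the other members of the 16, K10F12.6, Y71A12B.15, C09E7.5 and Y82E9BR.1 had no count in mut-7, where they were at least 63.0-fold, 36.2-fold, 35.3-fold and 20.3-fold lower than in wild type. Y53F4B.16 and F52C6.14 had no count in mut-2 and were at least 14.4-fold and 7.21-fold lower there, and Y73B3A.7 had none in either mutator, at least 4.55-fold lower in mut-2 and 8.45-fold lower in mut-7. In DPF-3 S784A the call of F52C6.14 was lost without its library B or C, at log2 differences of -1.38 and -1.29, and that of Y73B3A.7 without its library C, at -2.54.

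The mut-2 libraries were not alike for these pseudogenes. Library B had no count for 12 of the 16 and held 15 counts over all 16, whereas libraries A and C had none for 7 each and held 47 and 63 counts. Y37H9A.2, AC8.12, AC8.7 and W06A11.4 had counts in A and C and none in B. Without library B, 26 of the 45 pseudogenes were called lower in mut-2, and without A or C, 28 and 31 were. The matching shares of all features for mut-2 alone are not given here. Called lower by a log2 difference of -2 or below in both mutators were 24.4% of features without B. Without A or C 25.3% and 25.9% were, against 26.3% with all libraries. The cause of the difference between these libraries was not tested.

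**Figure D3:**
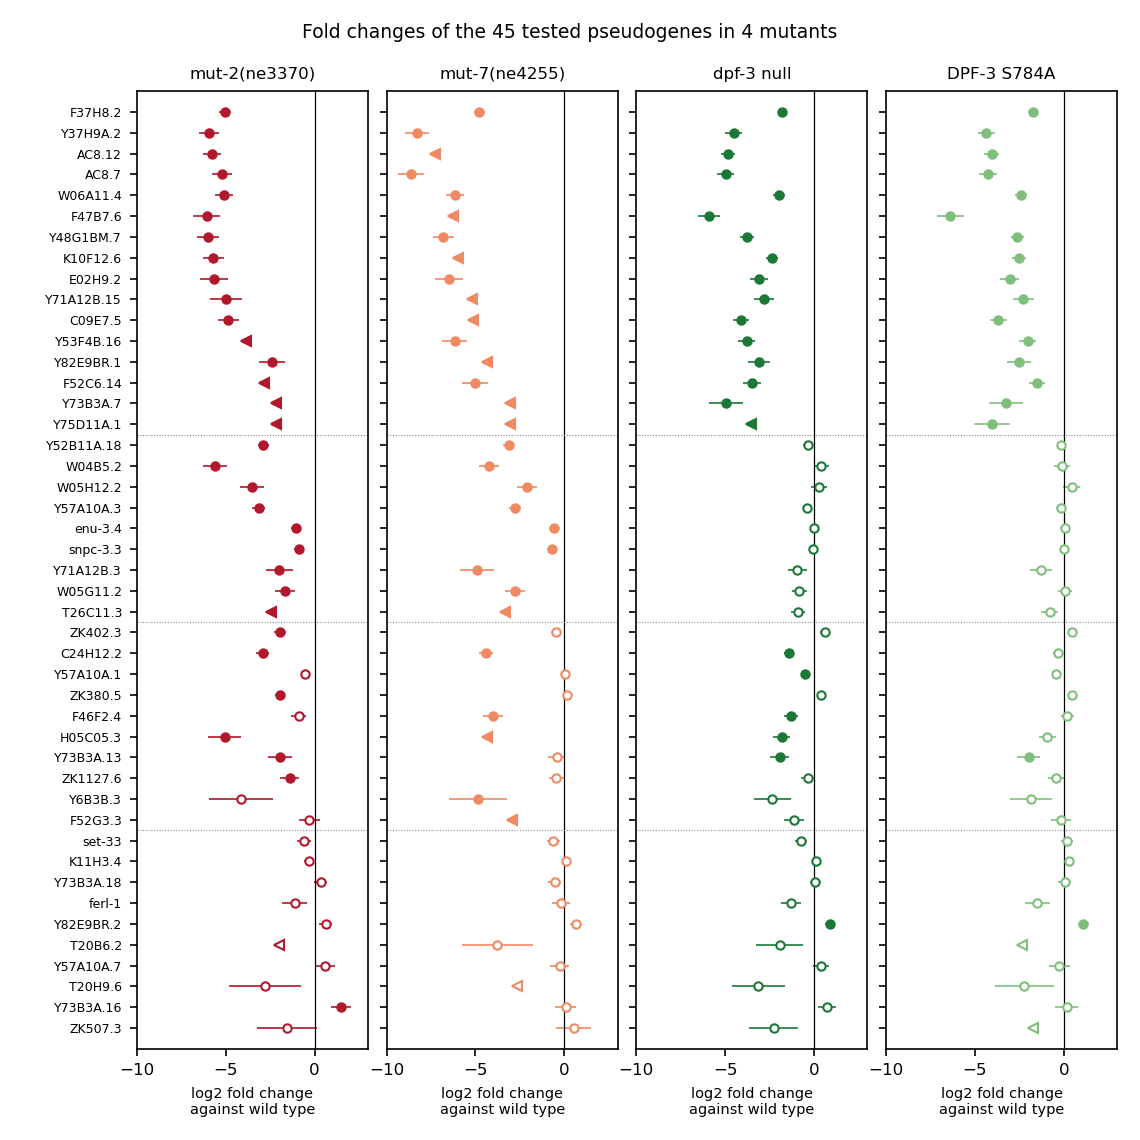
Log2 fold change against wild type for the 45 tested pseudogenes in mut-2, mut-7, dpf-3 null and DPF-3 S784A. Filled symbols passed the edgeR test and open ones did not, bars are standard errors, and triangles mark genotypes with no count, drawn at the bound that 3 counts allow; 16 pseudogenes are filled in all 4 panels.

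A second group of 9 pseudogenes was lower in both mutators and in neither dpf-3 genotype (7.13% of all tested features): Y52B11A.18, W04B5.2, W05H12.2, Y57A10A.3, enu-3.4, snpc-3.3, Y71A12B.3, W05G11.2 and T26C11.3. In the direct contrast of mutators with dpf-3 genotypes, 27 of the 45 pseudogenes were lower (28.0% of features) and 0 were higher (7.54% of features). The way the 9 were chosen largely fixes their direction in that contrast, so their differences between mutators and dpf-3 genotypes are given without a test. Summed over the 9, the mutator libraries held 2294 to 3516 CPM and the dpf-3 libraries 21646 to 25552 CPM. Wild type G to I held 11833 to 14461 CPM and A to F 27511 to 33757 CPM, so the dpf-3 libraries lay between the wild-type sets. Against A to F alone all 9 were lower in both mutators, and 6 were also lower in at least 1 dpf-3 genotype. Against G to I alone 4 were lower in both mutators, and 8 were higher in at least 1 dpf-3 genotype. Membership of the 9 thus depends on the wild-type set used.

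A pseudogene was counted as lost where it was called lower than wild type with a log2 difference of -2 or below in both mutators, and as kept where its log2 difference was above -1 in both dpf-3 genotypes. Lost were 23 of the 45 (26.3% of all tested features), and 5 of these were kept (3.61% of features): Y52B11A.18, W04B5.2, W05H12.2, Y57A10A.3 and T26C11.3. These 5 held 47.6% of all pseudogene counts. Of the lost features, the kept ones made up 21.7% among pseudogenes, 18.5% among protein-coding genes and 3.33% among intervals, with no test of the difference. Just inside the limits were W05H12.2 in mut-7 at -2.08 and T26C11.3 in dpf-3 null at -0.89, and just outside lay Y71A12B.3 in mut-2 at -1.98. The count was 5 against A to F alone (3.85% of features) and 4 against G to I alone (5.0% of features). Against G to I, H05C05.3 entered and W05H12.2 and T26C11.3 left. It was 2 of the 45 when libraries were scaled to their feature totals, near the 3.39% of features.

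Y52B11A.18 carried more small RNA counts than any other pseudogene of the table (chromosome I, 11059299 to 11061435, plus strand, 5 exons). It had 1696, 1622 and 2568 CPM in mut-2 and 1444, 1616 and 1880 CPM in mut-7. It had 9430.4, 11044 and 13338 CPM in dpf-3 null and 12157, 14677 and 12511 CPM in DPF-3 S784A. In wild type it had 8992, 11030.4 and 8278 CPM in G to I and 14797 to 21029 CPM in A to F. Both mutators lay under every other library, and the dpf-3 libraries spanned the gap between the wild-type sets. The log2 difference from wild type was -2.89 in mut-2 (SE 0.32, edgeR adjusted p = 1.13e-07) and -3.14 in mut-7 (SE 0.32, adjusted p = 2.22e-08). It was -0.37 in dpf-3 null (SE 0.27, adjusted p = 0.300) and -0.15 in DPF-3 S784A (SE 0.26, adjusted p = 0.739). Mutators and dpf-3 genotypes differed by -2.76 (SE 0.24).

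W04B5.2 had the largest fitted difference between mutators and dpf-3 genotypes among the 4 of these 5 with mutator counts (chromosome III, 2424355 to 2425678, plus strand, 5 exons). It had 156, 104 and 160 CPM in mut-2 and 375, 413 and 298 CPM in mut-7, against 9099, 8694 and 8991 CPM in dpf-3 null and 6114, 5667 and 7198 CPM in DPF-3 S784A. The wild-type libraries had 1956, 1992 and 2112 CPM in G to I and 8497 to 10755 CPM in A to F. The log2 difference of mutators from dpf-3 genotypes was -5.06 (SE 0.46). Both dpf-3 genotypes lay above all of G to I, and DPF-3 S784A lay below all of A to F.

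W05H12.2 (chromosome I, 13412425 to 13413172, minus strand, 2 exons) overlaps an exon of another gene on the opposite strand, and since the strand setting of the counting is not given, reads of the pair cannot be told apart. It had 124, 116 and 160 CPM in mut-2 and 366, 331 and 413 CPM in mut-7. It had 1774, 2007 and 1861 CPM in dpf-3 null and 2169.8, 2101 and 2058 CPM in DPF-3 S784A. The wild-type sets were 375, 348 and 371 CPM in G to I and 2002 to 2369.7 CPM in A to F. The mut-7 and G to I ranges overlapped, and against G to I alone it was not called lower in mut-7. The direct contrast of mutators with dpf-3 genotypes was -3.16 (SE 0.48).

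Y57A10A.3 (chromosome II, 12150918 to 12151879, plus strand, 4 exons) had 46.7, 69.5 and 87.5 CPM in mut-2 and 106, 105 and 53.5 CPM in mut-7. It had 522, 474 and 392 CPM in dpf-3 null and 588, 459 and 559.7 CPM in DPF-3 S784A, against 413, 341 and 419.6 CPM in wild type G to I and 625 to 806 CPM in A to F. The mutators lay below every other library, and mutators and dpf-3 genotypes differed by -2.68 on the log2 scale (SE 0.27). T26C11.3 (chromosome X, 1834393 to 1838441, minus strand, 5 exons) had no count in any of the 6 mutator libraries. It had 41.5, 26.3 and 39.9 CPM in dpf-3 null and 50.7, 14.8 and 43.1 CPM in DPF-3 S784A, against 80.3, 83.3 and 120.4 CPM in wild type G to I and 35.3 to 69.3 CPM in A to F. With 32 counts in the dpf-3 genotypes and 0 in the mutators, it was at least 7.73-fold lower in the mutators. It was the one of the 5 that stood higher in G to I than in A to F.

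**Figure D4:**
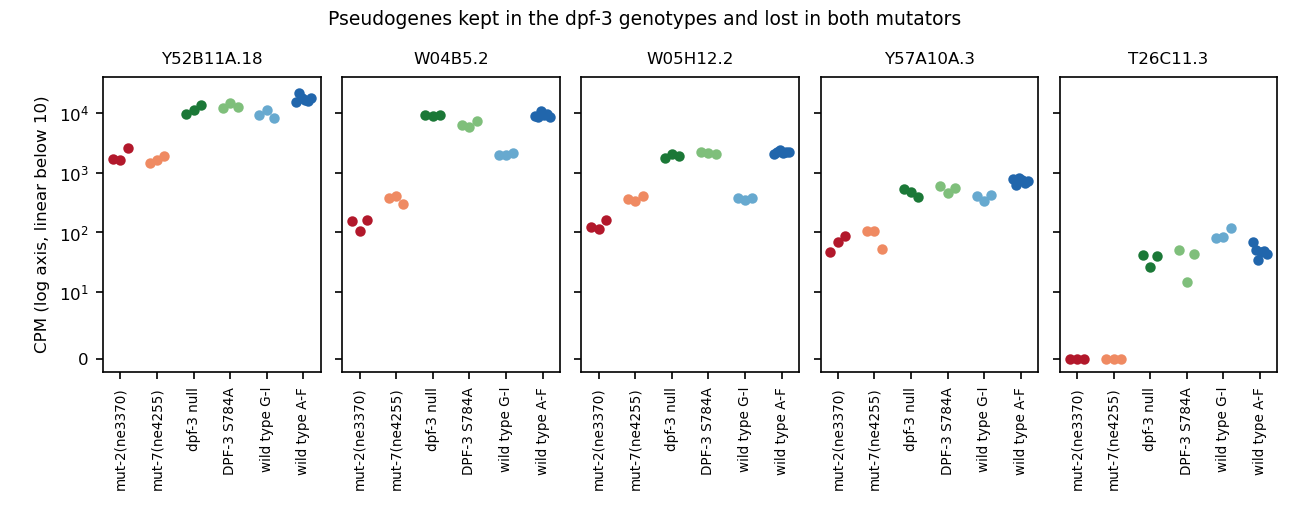
CPM in each library of the 5 pseudogenes counted as lost in both mutators and kept in both dpf-3 genotypes, on a log axis that is linear below 10 CPM. The mutator points lie under the dpf-3 points in every panel. Most dpf-3 points fall within wild type A-F or between A-F and G-I, a few fall within G-I, and in T26C11.3 some lie below every wild-type library.

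The other 4 of the 9 were Y71A12B.3, W05G11.2, snpc-3.3 and enu-3.4. Y71A12B.3 had 62.2, 0 and 73.0 CPM in mut-2 and 0, 5.81 and 7.64 CPM in mut-7. Its 2 counts in mut-7 against 340 in wild type were 28.0 times lower (exact 95% counting interval 7.69 to 232). Its log2 difference was -1.98 in mut-2 (SE 0.74, edgeR adjusted p = 0.0311), a call that was lost against G to I and without mut-2 library A or B, where the difference was -2.32 and -1.30. W05G11.2 had 46.7, 23.2 and 29.2 CPM in mut-2 and 19.2, 11.6 and 15.3 CPM in mut-7, against 66.3, 31.6 and 79.7 CPM in dpf-3 null, 112, 74.0 and 138 CPM in DPF-3 S784A and 39.8 to 165 CPM in wild type. Its log2 difference was -1.68 in mut-2 (SE 0.57, edgeR adjusted p = 0.0175) and -2.76 in mut-7 (SE 0.56, adjusted p = 0.000242). The pair with locus names differed less. The named pseudogene snpc-3.3, called after the subunits of a complex that activates small nuclear RNA genes, had 171 to 232 CPM in mut-2 and 206 to 238 CPM in mut-7, against 303 to 399 CPM in dpf-3 null, 335 to 387 CPM in DPF-3 S784A and 220 to 574 CPM in wild type. Its log2 difference was -0.88 in mut-2 (SE 0.28, edgeR adjusted p = 0.0124) and -0.70 in mut-7 (SE 0.25, adjusted p = 0.0221). enu-3.4 had 124, 127 and 263 CPM in mut-2 and 241, 192 and 283 CPM in mut-7, against 319, 374 and 372 CPM in dpf-3 null, 426, 296 and 379 CPM in DPF-3 S784A and 208 to 453 CPM in wild type. The mutator and wild-type ranges of both genes overlapped. For enu-3.4 the log2 difference in mut-7 was -0.60 (SE 0.25, edgeR adjusted p = 0.0461). That call was lost without any 1 of 13 libraries, at -0.61 to -0.45, and against G to I, and the difference was 0.74 when libraries were scaled to feature totals.

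Another 10 pseudogenes were lower in some other combination (8.55% of features). H05C05.3 (chromosome III) and C24H12.2 were lower in both mutators and in dpf-3 null but not called in DPF-3 S784A (2.62% of features were lower in both mutators and 1 dpf-3 genotype). H05C05.3 had 1 count in mut-2 and none in mut-7, against 45.6, 31.6 and 73.1 CPM in dpf-3 null, 101, 59.2 and 103 CPM in DPF-3 S784A and 78.4 to 276 CPM in wild type. Pooled, its 1 count in the mutators against 54 in the dpf-3 genotypes was 39.1 times lower, with an exact 95% counting interval of 6.73 to 1574. ZK402.3 (chromosome X) had 373, 266 and 452 CPM in mut-2 and 857, 1087 and 1062 CPM in mut-7. It had 2060.2, 2218 and 2139.9 CPM in dpf-3 null and 1997, 1790.3 and 2084 CPM in DPF-3 S784A, against 706 to 851 CPM in wild type G to I and 1585 to 2029 CPM in A to F. It was lower than wild type in mut-2 by -1.96 (SE 0.33, edgeR adjusted p = 3.19e-05), and the mut-7 libraries lay above all of G to I and below all of A to F. Y57A10A.1 was the one pseudogene lower in a dpf-3 genotype and in no mutator (0.635% of features), by -0.54 in dpf-3 null (SE 0.21, adjusted p = 0.0482). The call was lost without any 1 of 13 libraries, at -0.54 to -0.43, with all reads as the scale, with no filter and with the replicate block, at -0.26. Against either wild-type set alone it was lower in mut-2 too, by -0.54 against A to F (adjusted p = 0.0255) and by -0.59 against G to I (adjusted p = 0.0149). Its ranges overlapped, at 226 to 332 CPM in dpf-3 null and 283 to 488 CPM in wild type.

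In 10 pseudogenes no mutant was lower than wild type (64.3% of features). Against A to F alone 2 of the 10, Y73B3A.18 and set-33, were lower in at least 1 mutant. Against G to I alone 4 were, namely ZK507.3, ferl-1, T20B6.2 and T20H9.6. Against the pooled wild type 8 were called in no mutant (32.6% of features). Among these were set-33 and ferl-1, named for relatives with a SET domain and for the ferlin family. The other 2 were higher in a mutant (32.9% of features). Y82E9BR.2 (chromosome III, 1439096 to 1443192) had 104, 58.0 and 126 CPM in dpf-3 null and 122, 118 and 86.1 CPM in DPF-3 S784A, against 25.2 to 70.6 CPM in wild type. It rose by 0.91 in dpf-3 null (SE 0.28, edgeR adjusted p = 0.0144) and by 1.09 in DPF-3 S784A (SE 0.32, adjusted p = 0.0116). Y73B3A.16 (chromosome X, 78429 to 80402) had 62.2, 81.1 and 43.8 CPM in mut-2, against 7.24 to 43.6 CPM in wild type, a rise of 1.46 (SE 0.56, adjusted p = 0.0372) with 14 counts over the mut-2 libraries. None of these 3 rises passed with the size factors of DESeq2 in place of TMM, which gave 0.55, 0.80 and 1.12. Leaving out a single library ended the call in 2 cases for Y82E9BR.2 in each dpf-3 genotype and in 4 cases for Y73B3A.16.

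Between the 2 mutators few calls were made at these depths: 1 of the 45 pseudogenes was lower in mut-2 than in mut-7 (0.457% of features) and 1 was higher (0.397% of features). At an unadjusted p under 0.05 there were 12 of the 45 (11.1% of features), and 26 had a fitted log2 difference of more than 1 in either direction, with a median SE of 0.82, so missed calls do not show that the mutators were alike. ZK380.5 (chromosome X, 1648068 to 1649217, 3 exons) had 31.1, 57.9 and 117 CPM in mut-2, against 356, 244 and 283 CPM in mut-7, a log2 difference of -2.08 (SE 0.33, edgeR adjusted p = 0.002). It had 199 to 341 CPM in wild type, so mut-7 overlapped wild type, with 1 library above its range, and all of mut-2 lay under it. F46F2.4 (chromosome X, 15257597 to 15259013) had 140.0, 11.6 and 204 CPM in mut-2, against 9.62, 5.81 and 22.9 CPM in mut-7, a difference of 3.13 (SE 0.71, adjusted p = 0.0295), and the ranges overlapped through mut-2 library B. This call was lost without mut-2 library A or C or mut-7 library A or B, at 2.43 to 3.02, and with all reads as the scale, at 2.59. Fitted with wild type as 2 sets, which lowered the common dispersion to 0.00454 against 0.0948, 4 pseudogenes were lower (1.91% of features) and 5 higher (2.62% of features) in mut-2 than in mut-7. The lower ones were ZK380.5, ZK402.3 at -1.50 (SE 0.20), W05H12.2 at -1.47 (SE 0.30) and W04B5.2 at -1.41 (SE 0.33). The higher ones included F46F2.4 and Y37H9A.2 at 2.34 (SE 0.61, edgeR adjusted p = 0.00666).

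Between dpf-3 null and DPF-3 S784A no pseudogene was called in either direction by edgeR (0.0397% of features were lower and 0.0% higher in the null). DESeq2 called 0, and 5 pseudogenes had an unadjusted p under 0.05 (4.92% of features). The most abundant ones differed by less than their errors in this fit: Y52B11A.18 by -0.22 (SE 0.32), F37H8.2 by -0.05 (SE 0.29), Y37H9A.2 by -0.17 (SE 0.49) and W04B5.2 by 0.50 (SE 0.53). These errors include the gap between the wild-type sets. The W04B5.2 ranges did not overlap, at 8694 to 9099 CPM in dpf-3 null and 5667 to 7198 CPM in DPF-3 S784A. A miss of the threshold does not show that the genotypes act alike. F46F2.4 had 74.6, 79.0 and 106 CPM in dpf-3 null, against 193, 340 and 215 CPM in DPF-3 S784A, with no overlap and a log2 difference of -1.51 (SE 0.45, adjusted p = 0.579). With wild type fitted as 2 sets, F46F2.4 (-1.49, SE 0.29, edgeR adjusted p = 0.000136) and C24H12.2 (-1.11, SE 0.22, adjusted p = 0.000141) were lower in the null (2.04% of features) and W04B5.2 (0.49, SE 0.11, adjusted p = 0.000777) was higher (0.536% of features). C24H12.2 had 141 to 216 CPM in dpf-3 null and 340 to 405 CPM in DPF-3 S784A.

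The wild-type sets themselves differed for most pseudogenes, described here with no test. In 29 of the 45, every G to I library lay below every A to F library (28.3% of all tested features), and in 7 every G to I library lay above (13.7% of features). The median log2 ratio of G to I over A to F was -0.86 over the pseudogenes and -0.13 over all features. The deepest drops in G to I were those of W05H12.2 (-2.57), W04B5.2 (-2.19) and Y71A12B.3 (-2.08), all 3 lower in both mutators and in neither dpf-3 genotype. Y71A12B.3 (chromosome I) had 57.9, 43.5 and 58.3 CPM in G to I and 194 to 273 CPM in A to F, against 86.8 ± 6.19 CPM in dpf-3 null and 67.9 ± 6.63 CPM in DPF-3 S784A (SD, n = 3 each). In the other direction, 3 tested pseudogenes, all on chromosome III, were read in wild type almost only in G to I. ZK507.3 had 76.6, 61.6 and 54.4 CPM in G to I and 1 count in all of A to F. T20B6.2 had 108, 101 and 89.4 CPM in G to I and 2 counts in A to F, and T20H9.6 had 71, 68.8 and 109 CPM in G to I and 2 counts in A to F. The mutants had at most 6 counts per genotype at these 3 loci, nearer to A to F than to G to I. The exception was ZK507.3 in mut-7, with 38.5, 63.9 and 15.3 CPM. T20B6.2 had 4.15, 21.1 and 6.65 CPM in dpf-3 null, where the 2 sets gave calls in opposite directions. Loci elsewhere leaned the same way. Y6B3B.3 (chromosome I) had 283 counts in G to I and 18 in A to F. Of the untested pseudogenes of chromosome II, gcy-2 and C38C6.5 had 39 counts each in G to I and 0 in A to F, and C17G10.3 had 32 and 1.

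**Figure D5:**
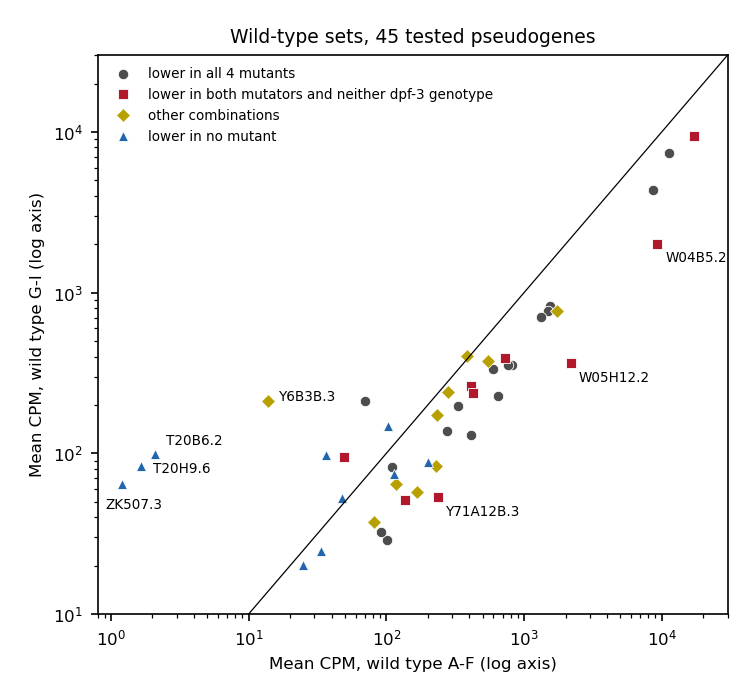
Mean CPM of the 45 tested pseudogenes in wild type G-I against wild type A-F, both on log axes, with the diagonal of equal levels; colours give the combination of mutants in which each was called lower. Most points lie under the diagonal, W04B5.2, W05H12.2 and Y71A12B.3 the furthest, and ZK507.3, T20B6.2, T20H9.6 and Y6B3B.3 lie above it.

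The 87 pseudogenes with counts but below the filter held 2161 counts over the 21 libraries, with a median of 9 and a maximum of 174 per pseudogene. Among those with a locus name, gcy-2, named after guanylyl cyclases, had 41 counts, ptc-2, named after the Patched receptors, had 39, and wago-11, a pseudogene of the Argonaute family itself, had 4. The most counted was F20B6.1, with 0 counts in mut-2, 5 in mut-7, 4 in the null and 8 in S784A worms, against 157 in wild type. Fitted without a filter, 10 of the 87 were lower in mut-2 (9.89% of the 28149 features then tested), 12 in mut-7 (11.9%), 4 in the null (6.97%) and 0 in S784A worms (5.61%), and 0 were higher in each. Pseudogenes also entered the table as intervals: 257 unnamed intervals overlapped a pseudogene exon on the same strand, 247 of them over pseudogenes with no row. The 47 of these that were tested were lower in 46 cases in mut-2 (31.5% of all features), 44 in mut-7 (33.3%), 37 in the dpf-3 null (23.2%), and 36 in S784A worms (21%), and higher in 0 cases in each. These 47 made up 97.9%, 93.6%, 78.7% and 76.6% lower, near the shares of all tested intervals. Those shares were 89.3% in mut-2, 90.1% in mut-7, 80.8% in the null and 77.4% in S784A worms, so the falls were not particular to pseudogenes. Against A to F alone 46, 47, 44 and 41 were lower in the same order of genotypes and 0 higher. Against G to I alone 43 were lower and 1 higher in mut-2, 44 lower and 2 higher in mut-7, 34 lower and 6 higher in the null, and 32 lower and 7 higher in S784A worms. Lost in both mutators were 43 of the 47, and 2 of these were kept in the dpf-3 genotypes, against the pooled wild type. Among all tested intervals 84.85% were lost and 2.83% were lost and kept, and among all features 26.3% and 3.61%. A further list held 8 genes taken as targets of the same pathway: saeg-2, C38D9.2, B0261.8, bath-45, K02E2.6, F37D6.3, C18D4.6 and eri-6. It was chosen with earlier results of these data known, so its falls are no independent check. Of these genes, 8 were lower in mut-2 (31.5% of all features), 8 in mut-7 (33.3%), 7 in the dpf-3 null (23.2%), and 7 in S784A worms (21%). The same numbers were lower against each wild-type set alone, and 1 was higher against G to I in each dpf-3 genotype.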

How the data were processed

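The deposited table holds counts, whole numbers of small RNA reads per feature and library, used as deposited. Named in the submitters' processing notes, with no role for each, are HTSeq 0.11.2, Bowtie 1.2.3, cutadapt 2.3 and SAMtools 1.9, and the build is ce11, the UCSC name of WBcel235. Neither the strand setting nor the treatment of reads with several positions is given in the sources used here, so pseudogenes with near-identical copies are uncertain. Rows for reads in no feature (53.1% to 90.7% of reads counted) or in several were left out.

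Biotypes, exons and coordinates came from Ensembl release 115, and names from RefSeq locus tags, which matched all 182 pseudogenes. Groups follow the genotype labels; the wild-type sets were known from earlier results of these data, and the members and lists were chosen with earlier results of these data known. One edgeR 4.0.16 quasi-likelihood model (R 4.3.3, limma 3.58.1) held all 21 libraries with a mean per genotype, TMM scaling and the filterByExpr filter, and p-values were adjusted by Benjamini-Hochberg over all 5038 features, called at 0.05. The tested features held 92.2% of feature counts. Standard errors are the log2 difference over the root of F, and edgeR raises a p that would fall under its Poisson bound. CPM values were computed here. Ratios with 1 to 3 counts have exact 95% intervals, and a group at 0 was bounded by 3 counts, both for counting error only. Pseudogenes named in full were the 12 highest by mean CPM, the 3 largest rises and falls per comparison at 10 CPM or more, up to 8 per pattern and the 3 extremes of the wild-type ratio; others are named after their values were seen. The procedure was tested on simulated data. Alternatives were the wild-type sets singly, DESeq2 1.42.0 and its size factors, scaling to all reads or to feature totals, no filter, genes only, a replicate block and leaving out each library. Plots used Python 3.11.15, pandas 2.3.3 and matplotlib 3.10.9.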

Additional observations from a re-analysis of the deposited data

How the results depend on the processing

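Of 95 differences called for the pseudogenes named in full, 80 kept their direction and stayed past the threshold under all alternatives run, and of 2827 alternative values 75 kept the direction without passing (45 of them with a library left out) and 4 reversed. The reversed values were W05H12.2 in mut-7 against wild type G to I (0.0005438), and, scaled to feature totals, Y57A10A.1 in dpf-3 null (0.082), enu-3.4 in mut-2 (0.21) and enu-3.4 in mut-7 (0.74). Under that scaling the median of all features was 1.18 for mut-2, 1.35 for mut-7, 0.76 for the null and 0.59 for S784A. In the main fit it was -0.02, 0.11, 0.17 and 0.04 in the same order. Counts of lower pseudogenes stayed within 1.5 times in 194 of 207 alternatives. The fit without a filter also took in the 87 pseudogenes below it. There 48 were lower in mut-2 (9.89% of the 28149 features) and 46 in mut-7 (11.9%). Counts of higher pseudogenes were small and moved more. In dpf-3 null they were 3 against A to F, 9 against G to I, 9 with feature totals and 0 with size factors, no filter, genes only or DESeq2. In DPF-3 S784A they were 11 against G to I, 10 with feature totals and 0 with size factors, all reads, no filter or DESeq2. In mut-2 they were 2 against G to I, 5 with feature totals and 0 with size factors, all reads, no filter, genes only, the replicate block or DESeq2. In mut-7 they were 1 against A to F, G to I or with the replicate block and 11 with feature totals. Mutators against dpf-3 genotypes gave 1 higher with 2 wild-type sets or the block and 2 with feature totals. The null against S784A gave 2 lower and 1 higher with 2 sets or the block. For mut-2 against mut-7, 4 were lower with 2 sets, all reads, no filter or the block and 2 with feature totals or DESeq2; 5 were higher with 2 sets, 3 with no filter, the block or DESeq2 and 2 with feature totals. Kept and lost pseudogenes numbered 2 with feature totals (3.39% of features) and 8 with no filter (1.33% of the 28149 features then tested). Leaving out a library gave 0 to 2 higher in dpf-3 null, 0 to 1 for S784A and for mut-2, and 1 to 2 lower and 0 to 4 higher in mut-2 against mut-7. The causes were not tested. Library letters did not pair the samples (correlation of same-letter deviations -0.051 to 0.051 over 30 pairs); with the replicate block 31 pseudogenes were lower for mut-2, 32 for mut-7, 27 for the null and 23 for S784A. The alternative on pseudogenes with unique sequence was not run. Depth limits pseudogenes of low level: 3 counts equal 34.8 to 46.7 CPM in mut-2, 17.4 to 28.9 in mut-7, 12.4 to 19.9 in the null and 25.8 to 44.4 in S784A, against 5.60 to 22.1 in wild type.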
